A study of Mus musculus with 15 samples.

Results

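Genes that mark the 2 kinds of heart chamber were followed across 15 microarrays of foam cells, the lipid-filled macrophages of atherosclerotic lesions. The 10 genes were 4 of atrial muscle (Myl7, Nppa, Myl4 and Sln), 3 of ventricular muscle (Myl2, Myl3 and Myh7) and 3 of muscle in both chambers (Myh6, Tnni3 and Ttn), out of 18193 genes named on the array. They were selected on their textbook chamber and on the uneven heart muscle signal already seen on these arrays, so their levels and their balance are a description and carry no test of that unevenness. All 4 atrial genes were high on 13 arrays and low on CHOW arrays 4 and 5, whereas the ventricular genes were spread widely within every diet group, Myl2 most of all.

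All mice were C57BL/6 and ApoE-/-, which lack apolipoprotein E, so the controls carry the same deletion. The CHOW group had eaten regular chow to 22 weeks of age. The 14w-WD group was given a western-type diet for 14 weeks, from week 8 to week 22, and the 2w-WD group for 2 weeks, which the series text places between weeks 22 and 24 and the sample labels after 20 weeks of chow. Each group has 5 arrays, and the labels tie none of them to an animal, litter or day, so the spread between arrays may be partly technical. The cells were cut by laser from sections of the aortic sinus, the root of the aorta at the base of the heart, and their RNA was amplified before it was put on Affymetrix Mouse Genome 430 2.0 arrays. The comparisons ask how the length of western-type feeding alters the foam cells. By the series text the western diet groups also differ in age at the start of the diet, 8 against 22 weeks. The 2w-WD mice were also older at the end, at 24 weeks against 22 in the other groups. Feeding length cannot be told apart from these ages.

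Heart muscle contracts through sarcomeres, in which myosin heavy chains pull on actin and carry a regulatory and an essential light chain each. Atrial and ventricular muscle use different members of the light chain families, and in the adult mouse both chambers use the alpha heavy chain, while the beta heavy chain is a minor form in the ventricle. Atrial muscle also releases natriuretic peptide and holds sarcolipin, a small inhibitor of the sarcoplasmic calcium pump. Some of these genes are not confined to the heart: Myl3 and Myh7 also serve slow skeletal muscle, and Sln is found in skeletal muscle.

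The promoters of an atrial and a ventricular regulatory light chain, of the atrial peptide and of the ventricular essential light chain are shown so that 2 genes of each chamber can be set side by side. They are the 250 bases before the RefSeq start, from RefSeq on build GRCm38.p6, read 5′ to 3′ on the gene's strand. Capitals mark matches, on either strand, to the GATA letters AGATAA (or the same with T in first place or G in last place), the E-box CANNTG, the NKX2 letters TNAAGTG, the T-box letters AGGTGT, the TATA letters TATAAA, the CArG box and the MEF2 site. Myl7 lies on the minus strand at chr11:5898783-5899032, Nppa on the plus strand at chr4:148000472-148000721, Myl2 (the first of 2 entries) on the plus strand at chr5:122092474-122092723 and Myl3 on the plus strand at chr9:110763428-110763677.
Myl7: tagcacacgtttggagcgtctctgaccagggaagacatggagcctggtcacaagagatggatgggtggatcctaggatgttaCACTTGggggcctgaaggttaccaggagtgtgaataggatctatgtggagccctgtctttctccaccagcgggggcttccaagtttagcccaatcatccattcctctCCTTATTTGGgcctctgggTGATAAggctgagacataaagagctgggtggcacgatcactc
Nppa: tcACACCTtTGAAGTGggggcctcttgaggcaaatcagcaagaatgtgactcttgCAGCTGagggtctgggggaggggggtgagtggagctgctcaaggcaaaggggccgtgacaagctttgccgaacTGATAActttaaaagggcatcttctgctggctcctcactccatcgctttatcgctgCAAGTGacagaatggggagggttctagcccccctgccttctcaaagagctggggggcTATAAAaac
Myl2: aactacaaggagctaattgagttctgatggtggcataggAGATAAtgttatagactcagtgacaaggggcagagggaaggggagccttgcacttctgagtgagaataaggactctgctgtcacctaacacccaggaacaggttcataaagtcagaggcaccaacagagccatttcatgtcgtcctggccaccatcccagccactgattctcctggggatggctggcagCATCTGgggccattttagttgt
Myl3: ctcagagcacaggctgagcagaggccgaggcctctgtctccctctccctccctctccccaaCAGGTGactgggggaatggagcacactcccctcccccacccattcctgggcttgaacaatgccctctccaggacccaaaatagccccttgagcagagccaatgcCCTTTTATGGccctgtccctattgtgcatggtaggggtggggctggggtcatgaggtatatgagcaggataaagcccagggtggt
The Myl7 sequence holds a CArG box at -61 to -52 from the start, and the Myl3 sequence holds one at -85 to -76, so 1 atrial and 1 ventricular gene share this motif. It occurs in 1.47% of the 32851 mouse promoter entries of the same length. Myl7, Nppa and Myl2 each hold GATA letters, which stand in 26.5% of those entries, and all 4 hold an E-box, which stands in 66.2%. Nppa alone of the 4 also has NKX2, T-box and TATA letters, found in 10.1%, 11.8% and 12.4% of entries. Of the 10 genes, 9 had an entry. The MEF2 site, found in 2.92% of entries, was matched in Ttn alone, and the Myl4 window held no match to any of the letters searched. That window, at chr11:104550413-104550662, lies inside the RefSeq span of Myl4, chr11:104546017-104587215. The bases before the start of that span were not searched. A match describes the letters and is not a measured binding site.

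The deposited values are linear intensities per probe set with no depth attached, and the number of arrays limits the precision. Levels below are log2(intensity + 16), in which the probe set with the highest mean stands for a gene, and 5.66 is the median of all probe sets. Probe sets differ in their response, so each gene was compared with itself across arrays and never with another gene. The summed intensity of 12 macrophage markers, carried by its bright genes such as Csf1r, Ctss and Lyz2, was 102200 to 125100 in CHOW, 91590 to 111800 in 2w-WD and 107600 to 119800 in 14w-WD, and Adgre1, the F4/80 antigen, ran from 12.51 to 13.08. Not all 12 were bright: Itgam was under the filter on low values, and Aif1 and Cd14 went down to 5.11 and 6.16. Apoe, the deleted gene, ran from 4.14 to 5.65 in CHOW, from 4.61 to 5.41 in 2w-WD and from 4.96 to 5.62 in 14w-WD, all under that median. CHOW arrays 4 and 5 stood apart in the atrial genes. The group differences from CHOW, the balance and the median correlations of chamber pairs are given with and without them. Ranks of spread and correlations with other genes include both arrays unless stated.

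Myl7, the atrial regulatory light chain, read 13.29, 13.25, 12.49, 8.11 and 7.73 on CHOW arrays 1 to 5, then 14.00, 12.16, 13.41, 13.59 and 13.57 in 2w-WD, and 12.82, 12.63, 12.65, 13.71 and 13.67 in 14w-WD. CHOW arrays 4 and 5 were far below the rest, at intensities of 260.4 and 196.6 against 4560 or more on the other 13 arrays. CHOW arrays 1 and 2 lay inside the range of both western diet groups, and array 3 inside that of 2w-WD and just under that of 14w-WD, so the groups overlapped. In a bulk sample such as this, fewer cells of a type and less RNA per cell cannot be told apart.

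Myl4, the atrial essential light chain, had a similar pattern, at 12.64, 12.98, 12.29, 6.66 and 6.26 in CHOW, 13.93, 11.11, 13.16, 13.47 and 13.46 in 2w-WD, and 12.38, 12.26, 12.37, 13.65 and 13.35 in 14w-WD. Sln, the calcium pump inhibitor, read 12.99, 12.60, 12.47, 6.66 and 5.55 in CHOW, 13.91, 11.52, 13.14, 13.40 and 13.26 in 2w-WD, and 12.41, 12.35, 12.75, 13.67 and 13.27 in 14w-WD. For both, CHOW arrays 4 and 5 were low, and array 5 took Sln below the median of all probe sets. The next lowest array was 2w-WD array 2 for Myl7, Myl4 and Sln, and among the western diet arrays 2w-WD array 1 was the highest for all 3.

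Nppa, which encodes atrial natriuretic peptide, read 13.66, 13.53, 13.31, 8.42 and 9.75 in CHOW, 14.02, 12.49, 13.62, 13.47 and 13.87 in 2w-WD, and 11.02, 13.28, 13.56, 13.98 and 13.62 in 14w-WD. It differed from the other atrial genes in 2 places. As deviations from a gene's own mean over the 15 arrays, CHOW array 5 gave -3.03 for Nppa and -4.74, -5.74 and -6.45 for Myl7, Myl4 and Sln. On 14w-WD array 1 the deviation was -1.75 for Nppa, and 0.35, 0.38 and 0.41 for Myl7, Myl4 and Sln, so Nppa was low there on its own. Without CHOW arrays 4 and 5, the SD over 13 arrays was 0.56 for Myl7, 0.80 for Nppa, 0.77 for Myl4 and 0.64 for Sln.

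**Figure D1:**
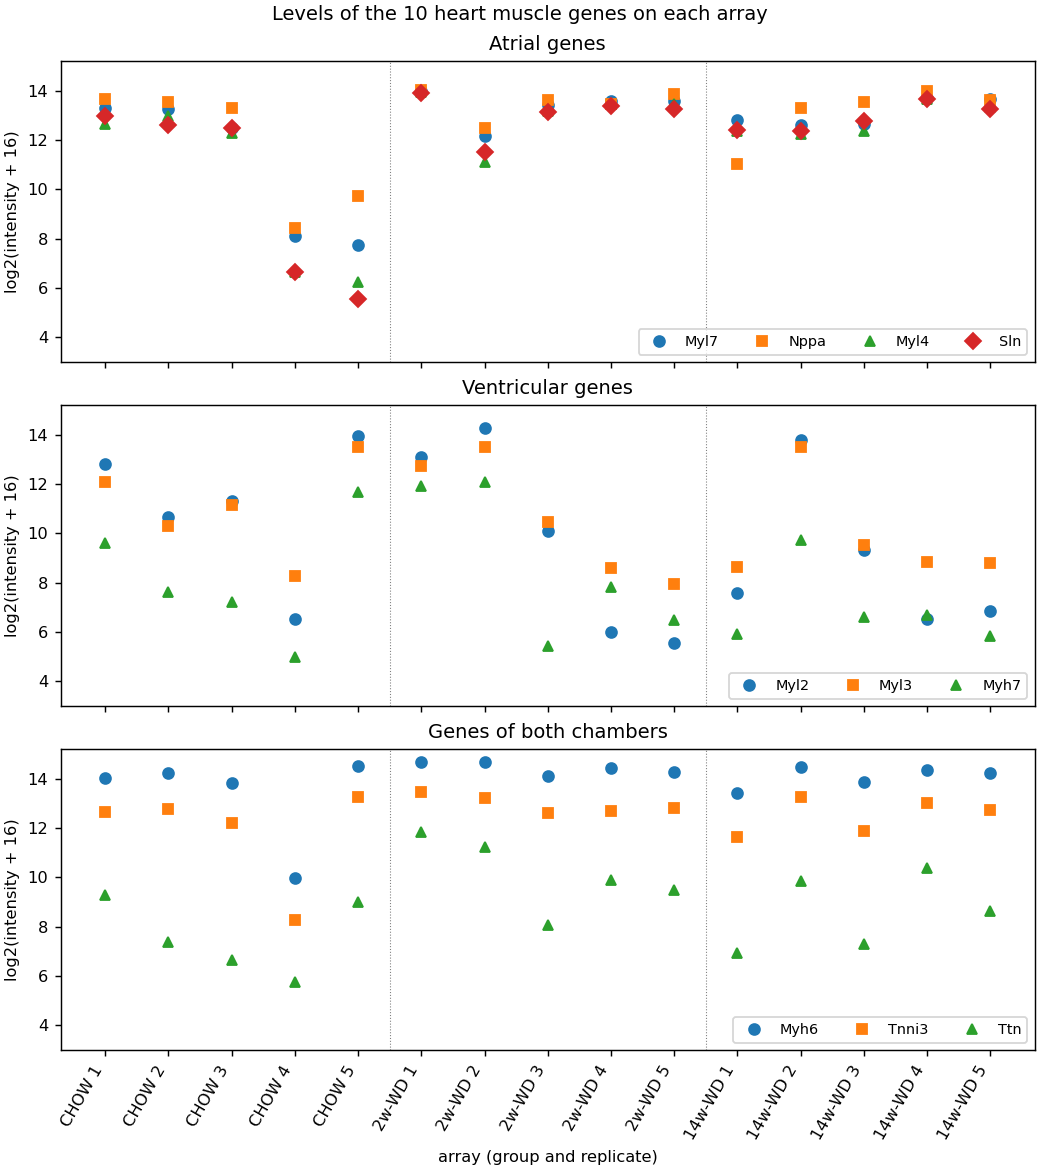
Level of each of the 10 genes, as log2(intensity + 16) on the y axis, on each array on the x axis, in panels of atrial genes, ventricular genes and genes of both chambers; dotted lines part the 3 groups. The atrial points drop together on CHOW arrays 4 and 5, and the ventricular points are spread within every group.

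Myl2, the ventricular regulatory light chain, read 12.79, 10.65, 11.31, 6.51 and 13.95 in CHOW, 13.09, 14.26, 10.10, 6.02 and 5.56 in 2w-WD, and 7.59, 13.78, 9.33, 6.54 and 6.84 in 14w-WD. It was high on CHOW arrays 1 and 5, 2w-WD arrays 1 and 2 and 14w-WD array 2, and low, at intensities of 31.22 to 176.7, on CHOW array 4, 2w-WD arrays 4 and 5 and 14w-WD arrays 1, 4 and 5. Its highest intensity was 19640. Every group held both high and low arrays, and the groups overlapped.

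Myl3, the ventricular essential light chain, read 12.08, 10.29, 11.14, 8.27 and 13.48 in CHOW, 12.75, 13.51, 10.47, 8.61 and 7.95 in 2w-WD, and 8.65, 13.51, 9.52, 8.86 and 8.80 in 14w-WD. Its 3 highest arrays, CHOW 5, 2w-WD 2 and 14w-WD 2, were also the 3 highest for Myl2. Its probe sets gave unequal spans: the brightest ran from 7.95 to 13.51, and the second from 4.91 to 13.83 with a correlation of 0.98 to the first over the 15 arrays. The dimmest of the 3 ran from 6.42 to 9.81, with a correlation of 0.86 to the brightest, so the size of a Myl3 difference depends on the probe set.

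Myh7, the beta heavy chain, read 9.60, 7.64, 7.24, 4.98 and 11.69 in CHOW, 11.91, 12.07, 5.44, 7.81 and 6.47 in 2w-WD, and 5.91, 9.74, 6.62, 6.67 and 5.84 in 14w-WD. The high arrays were those of the ventricular light chains, though 2w-WD array 1 stood next to 2w-WD array 2 here. On 2w-WD array 3 the deviation from the 15-array mean was -2.54 for Myh7, against 0.21 for Myl2 and -0.05 for Myl3. Myh7 lies beside Myh6 on chromosome 14 of GRCm38.p6, at chr14:54970684-54994626 and chr14:54941921-54968017 in RefSeq, and the 2 probe sets that name both genes were not used.

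Myh6, the alpha heavy chain of both chambers, read 14.02, 14.22, 13.81, 9.98 and 14.50 in CHOW, 14.69, 14.69, 14.12, 14.42 and 14.25 in 2w-WD, and 13.43, 14.48, 13.87, 14.35 and 14.24 in 14w-WD. It was high on 14 arrays, including CHOW array 5, and low on CHOW array 4. Between 2 and 254 probe sets of the array were brighter on those 14 arrays, against 2861 on CHOW array 4, and the brightest signal of any array lay between 14.50 and 14.89, so Myh6 lay near the top of the scale on most arrays.

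Tnni3, the cardiac inhibitory troponin, read 12.66, 12.75, 12.22, 8.26 and 13.26 in CHOW, 13.47, 13.22, 12.60, 12.68 and 12.80 in 2w-WD, and 11.64, 13.27, 11.87, 13.01 and 12.74 in 14w-WD. Ttn, the giant spring protein of the sarcomere, read 9.27, 7.36, 6.67, 5.76 and 8.99 in CHOW, 11.84, 11.25, 8.08, 9.87 and 9.49 in 2w-WD, and 6.94, 9.86, 7.29, 10.39 and 8.62 in 14w-WD. Tnni3 followed Myh6, low on CHOW array 4 and high on CHOW array 5. Ttn had a wider spread, was lowest on CHOW array 4 and CHOW array 3, and was highest on 2w-WD arrays 1 and 2. Its 6 probe sets were not alike: those next in brightness correlated with the brightest at 0.93 and 0.90, and one that stayed between 6.11 and 6.94 correlated at 0.04.

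The spread within groups was large against the rest of the array. The within-group SD was 3.30 for Myl2, the largest of the 11925 genes tested, 2.49 for Myh7 (rank 4), 2.19 for Sln (rank 9), 2.17 for Myl3 (rank 10) and 2.10 for Myl4 (rank 17), against a median of 0.47 over all tested genes. Myl7, Nppa and Ttn ranked 40, 52 and 75, so 8 of the 10 were among the first 100, and Tnni3 and Myh6 ranked 147 and 264. The ranks of the atrial genes include CHOW arrays 4 and 5. The SD of these genes was 2.47 to 3.63 in CHOW and 0.55 to 1.18 in the western diet groups. All these ranks describe the values that drew attention to the genes and test nothing.

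To set the chambers against each other, each gene was expressed as its deviation from its own 15-array mean, and the mean deviation of the 3 ventricular genes was subtracted from that of the 4 atrial genes. This balance, in log2 units, is above 0 where the atrial genes exceed their usual level by more than the ventricular genes do. It was -1.19, 0.72, -0.10, -1.97 and -8.57 on CHOW arrays 1 to 5. In 2w-WD it was -1.46, -4.31, 1.82, 3.16 and 4.03, and in 14w-WD 1.93, -2.56, 1.49, 3.55 and 3.47. CHOW array 5 was the lowest, with a mean deviation of -4.99 in the atrial and 3.58 in the ventricular genes. The 4 highest were 2w-WD arrays 4 and 5 and 14w-WD arrays 4 and 5, where the atrial deviation was 1.17 to 1.44 and the ventricular deviation -2.80 to -1.99.

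A low balance took different forms. CHOW array 4 had both chambers low, with an atrial deviation of -4.85, a ventricular deviation of -2.88 and a shared deviation of -3.71. Its balance of -1.97 therefore compares 2 low signals. On 2w-WD array 1 both were high, at 1.66 and 3.12. On 2w-WD array 2 and 14w-WD array 2 the ventricular genes were 3.82 and 2.88 above their means while the atrial genes were at -0.49 and 0.32.

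**Figure D2:**
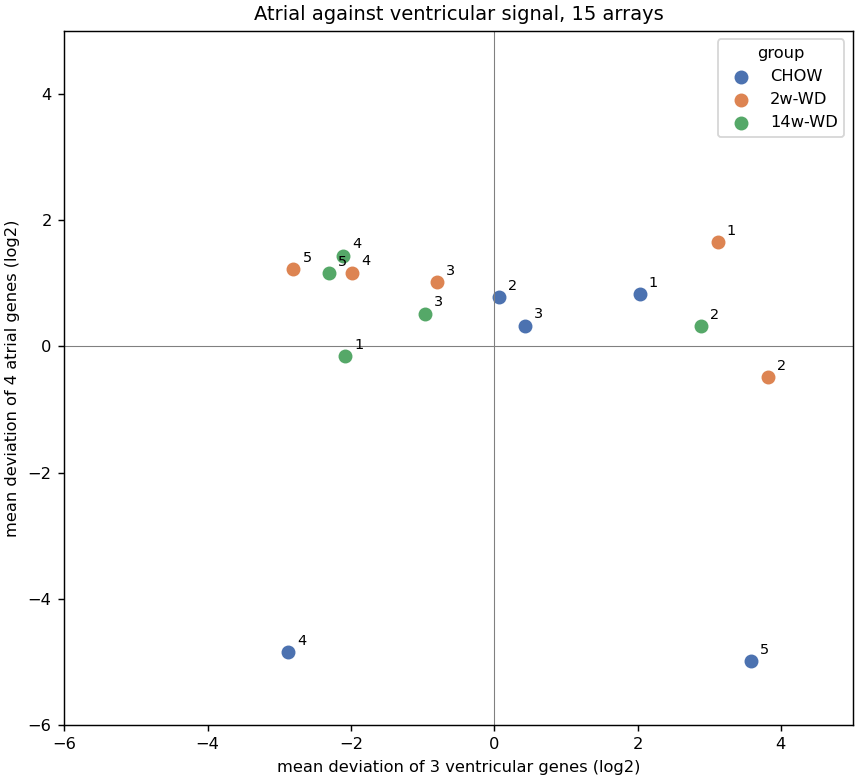
Mean deviation of the 4 atrial genes (y axis, log2) against that of the 3 ventricular genes (x axis, log2) on each of 15 arrays, coloured by group and numbered by replicate. CHOW array 4 is low on both axes, CHOW array 5 pairs an atrial deviation of -4.99 with a ventricular one of 3.58, and the other 13 arrays lie between -0.49 and 1.66 on the atrial axis.

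The balance averaged -2.22 ± 3.69 (SD, n = 5) in CHOW, 0.65 ± 3.47 (SD, n = 5) in 2w-WD and 1.58 ± 2.49 (SD, n = 5) in 14w-WD. The means differed by 2.87 (2w-WD minus CHOW), 3.80 (14w-WD minus CHOW) and 0.93 (14w-WD minus 2w-WD), beside SDs of 2.49 to 3.69 within groups, and the 3 ranges overlapped. Without CHOW arrays 4 and 5 the CHOW mean was -0.19 ± 0.96 (SD, n = 3), and the differences of 2w-WD and 14w-WD from CHOW were 0.84 and 1.77. The choice to leave those 2 arrays out was made after their values were seen. Because the balance sums genes chosen for this pattern, no p-value is given for it.

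**Figure D3:**
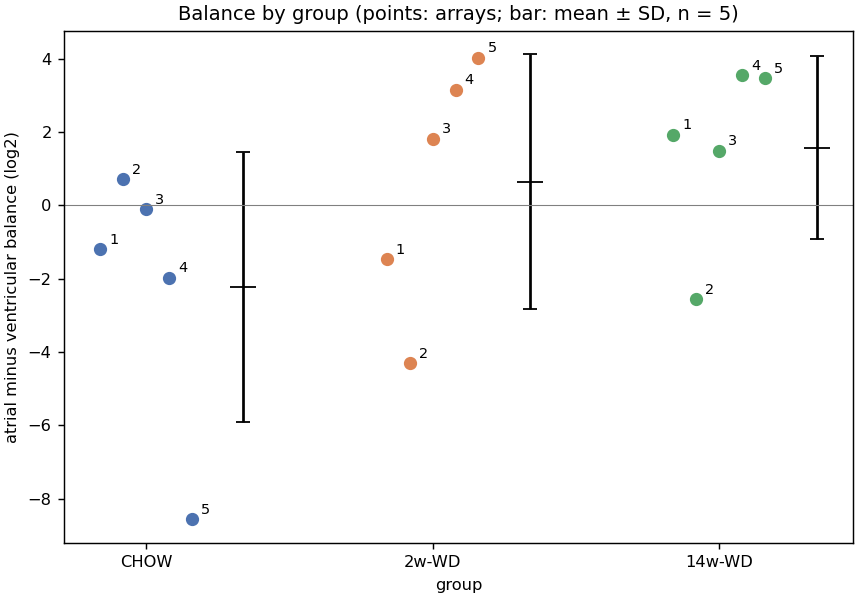
Atrial minus ventricular balance (y axis, log2) by group (x axis), with a point for each array, numbered by replicate, and a bar for the mean ± SD (n = 5). The 3 groups overlap, and CHOW array 5 at -8.57 lies below all other arrays.

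The light chains form 2 pairs in which an atrial gene has a ventricular counterpart of the same function. Myl7 minus Myl2, the regulatory pair, was -8.80 on CHOW array 5, -4.69 on 2w-WD array 2 and -3.74 on 14w-WD array 2. It was 4.25 to 5.43 on 2w-WD arrays 4 and 5 and 14w-WD arrays 4 and 5. Myl4 minus Myl3, the essential pair, was -8.69, -3.87 and -2.72 on the first 3 of these arrays and 3.08 to 4.04 on the other 4. Both pairs therefore placed the same arrays at the same ends. Over the 15 arrays their Pearson r was 0.96 and Spearman's rho 0.96, and r was 0.92 without the 2 arrays farthest from the median balance, 2w-WD array 2 and CHOW array 5. The pairs share arrays and were chosen together, so this is a description. The heavy chain pair gave a narrower range, from -3.34 to 2.72 for Myh6 minus Myh7, with 2w-WD arrays 1 and 2 and CHOW array 5 at the low end. Unlike Myl7 and Myl4, Myh6 is a gene of both chambers. It stayed between 13.43 and 14.69 on all arrays but CHOW array 4, where Myh7 ran from 5.44 to 12.07 on those same arrays. The heavy chain range is therefore not a contrast of the 2 chambers.

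**Figure D4:**
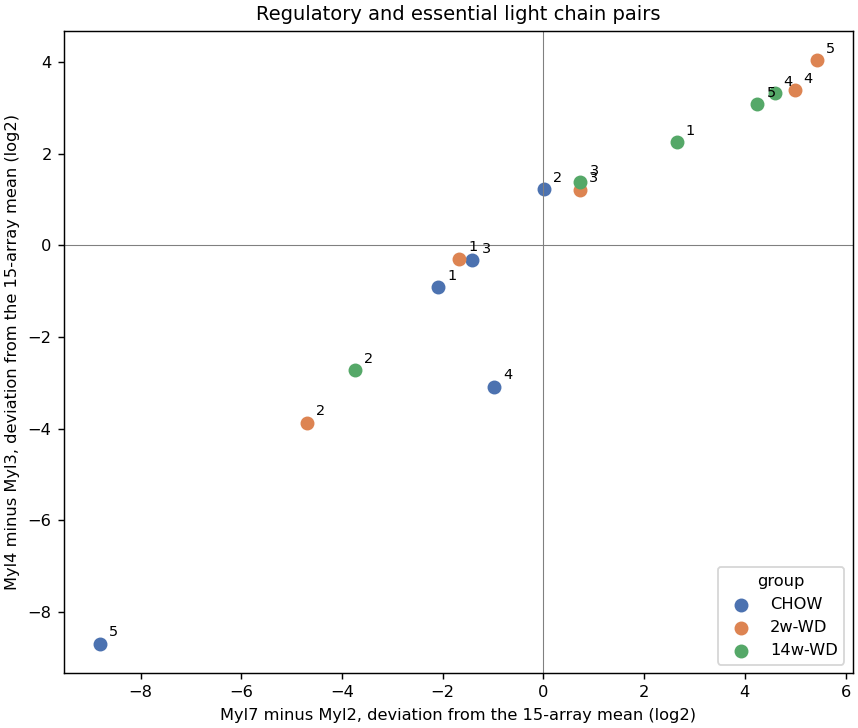
Myl4 minus Myl3 (y axis) against Myl7 minus Myl2 (x axis), each as a log2 difference of deviations from the 15-array mean, with a point for each array coloured by group and numbered by replicate. CHOW array 5 lies at -8.80 and -8.69, and the upper right end is held by 2w-WD and 14w-WD arrays 4 and 5.

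Genes of a chamber moved together from array to array. The Pearson r over 15 arrays was 0.91 to 1.00 for the 6 pairs of atrial genes, with a median of 0.96, and 0.82 to 0.98 for the 3 pairs of ventricular genes, with a median of 0.87. Between an atrial and a ventricular gene it was -0.21 to 0.04 over 12 pairs, with a median of -0.16. Myh6 and Tnni3 correlated at 0.99, and Ttn correlated more closely with Myh7 (0.69) than with Myl2 (0.33). All points share the array, its amplification and its scaling.

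These values moved when arrays were left out. Without 2w-WD array 2 and CHOW array 5, the median r between chambers was 0.27, and that between an atrial and a shared gene was 0.94 where it had been 0.52 over all 15. The medians within a chamber were then 0.96 for atrial and 0.80 for ventricular pairs. Without CHOW arrays 4 and 5 the medians were 0.79 for atrial pairs (0.57 to 0.96), 0.83 for ventricular pairs and -0.36 between chambers. For an atrial and a shared gene the median was then 0.27, so the 0.94 depended on which arrays were left out. The median between chambers was thus above or below 0 depending on which arrays were left out, and those within a chamber were above 0 in each case. With each gene taken as its deviation from its group mean, the medians were 0.95 for atrial pairs, 0.88 for ventricular pairs and -0.09 between chambers.

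**Figure D5:**
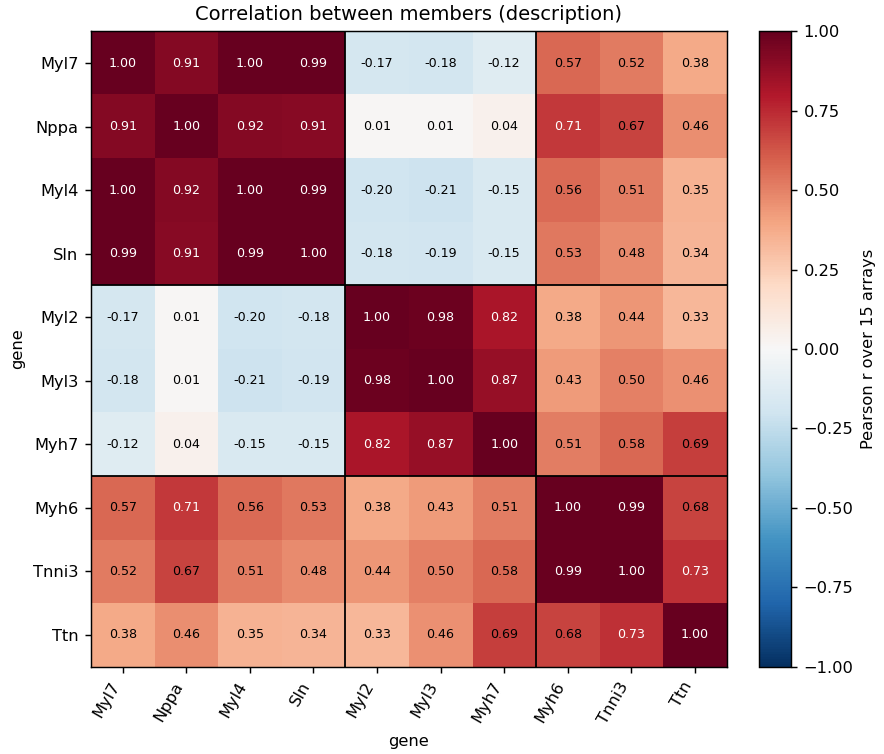
Pearson r between each pair of the 10 genes over 15 arrays, coloured from -1 (blue) to 1 (red) with the value printed; black lines part atrial, ventricular and shared genes. The atrial block (0.91 and above) and the ventricular block (0.82 and above) stand against values near 0 between them.

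All 10 genes passed the filter on low values, a mean of at least 5.66, and were tested with limma over 11925 genes in all. In 2w-WD against CHOW, 0 of the 10 changed, beside a background of 0% of genes called (0 of 11925, with 1164 at an unadjusted p under 0.05). In this comparison the difference in mean level was 2.37 for Myl7, 1.76 for Nppa, 2.86 for Myl4 and 2.99 for Sln, with SEs of 0.86 to 1.16 and limma's adjusted p from 0.492 to 0.525. Without the 2 low CHOW arrays these differences were 0.34, -0.0077, 0.39 and 0.36. Ttn had the smallest unadjusted p of the 10, with a difference of 2.49 (SE 0.83, limma's adjusted p = 0.481), and 2.34 without those 2 arrays. Myh6 and Tnni3 both differed by 1.13, and by 0.42 and 0.41 without them. Myl2, Myl3 and Myh7 differed by -1.24, -0.39 and 0.51, each less than its SE of 1.16 to 1.76, and by -1.78, -0.51 and 0.58 without those arrays.

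In 14w-WD against CHOW, 0 of the 10 changed, beside 0.00839% of genes called (1 of 11925). The atrial differences were 2.12 for Myl7, 1.36 for Nppa, 2.63 for Myl4 and 2.84 for Sln, with limma's adjusted p from 0.257 to 0.444. Without CHOW arrays 4 and 5 they were 0.09, -0.41, 0.16 and 0.20. The ventricular differences were -2.23 for Myl2, -1.18 for Myl3 and -1.27 for Myh7, with SEs of 1.76, 1.16 and 1.33 and limma's adjusted p from 0.541 to 0.648, and were -2.77, -1.30 and -1.20 without those 2 arrays. Myh6, Tnni3 and Ttn differed by 0.77, 0.68 and 1.01, with adjusted p from 0.533 to 0.631, and by 0.061, -0.037 and 0.85 without CHOW arrays 4 and 5.

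In 14w-WD against 2w-WD, 0 of the 10 changed, beside 11.2% of genes called (1338 of 11925, of which 1201 were higher and 137 lower in 14w-WD; the count was 164 to 3536 with single arrays left out). The atrial differences were -0.25 for Myl7, -0.40 for Nppa, -0.22 for Myl4 and -0.16 for Sln, each within its SE of 0.86 to 1.16. Myl2, Myl3 and Myh7 differed by -0.99, -0.79 and -1.78, and Ttn by -1.49 (SE 0.83, limma's adjusted p = 0.218). The median over all tested genes was 0.23 in this comparison, 0.16 in 14w-WD against CHOW and -0.10 in 2w-WD against CHOW. The first 2 comparisons share the CHOW arrays. A p above the threshold does not show that levels were alike: with SEs of 0.59 to 1.76 on the log2 scale, differences of several-fold could be missed.

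Other genes of the same pathways were taken from lists. Among further atrial genes, 11 were on the array, 6 passed the filter and 0 changed in any comparison. All 6 correlated more with the atrial than with the ventricular deviation, as did 51.0% of the 11915 other tested genes. Kcnj3 and Kcnj5, which form the acetylcholine-gated potassium channel of the atrium, had r of 0.67 and 0.57 with the atrial deviation and -0.0073 and -0.0050 with the ventricular one. Tbx5, a transcription factor of the early heart, had 0.60 and 0.24, and all 3 were lowest on CHOW array 4 and highest on 2w-WD array 1. The same arrays were the lowest and highest for general heart muscle genes such as Myom2 and Tnnt2. On CHOW array 5 Kcnj5 (5.69) and Tbx5 (6.37) stood near their values on CHOW array 3 (5.68 and 6.46). Kcnj3 was lower there, at 5.17 against 5.69. Dkk3, Pam and Corin had an atrial r of 0.04, 0.23 and 0.37.

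Among further ventricular genes, 9 were on the array, 7 passed the filter and 0 changed. The ventricular r exceeded the atrial one in 6 of the 7, against 49.0% of the other tested genes, and Hey2 was the exception. Fhl2, a scaffold protein of the sarcomere, had an r of 0.84 with the ventricular and -0.04 with the atrial deviation. Its levels were 7.84, 4.67, 4.85, 4.63 and 7.47 in CHOW, 9.34, 7.38, 4.56, 4.51 and 4.48 in 2w-WD, and 5.23, 7.61, 5.25, 5.50 and 5.67 in 14w-WD, so its 5 highest arrays were the 5 highest for Myl2. Kcnip2, the channel subunit of the ventricular transient outward current, had 0.70 and 0.11, and Pln, the calcium pump inhibitor phospholamban, 0.68 and 0.33. The other tested genes followed the ventricular deviation less or not at all, with an r of 0.49 for Irx3, 0.094 for Irx5, -0.048 for Kcnd2 and -0.43 for Hey2.

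Lists of the general heart muscle machinery were counted in the same way. Of 10 tested sarcomere genes, 13 of the Z-disc and intercalated disc, 10 of calcium handling and 12 of energy supply, 0 changed in any comparison, beside 0%, 0.00839% and 11.2% of all tested genes in the comparisons as ordered above. Most of these genes were lowest on CHOW array 4. Myom2, an M-band protein, ran from 4.45 on CHOW array 4 to 14.14 on 2w-WD array 1, and Tnnt2, cardiac troponin T, from 7.23 to 13.31 on the same arrays. Mb, myoglobin, ran from 7.17 on CHOW array 4 to 13.97 on 2w-WD array 2. Tpm1, a tropomyosin, was instead lowest on 2w-WD array 4 and highest on CHOW array 5, and Ckm, the muscle creatine kinase, stayed between 5.87 and 6.78. The ventricular r was higher than the atrial one in 7, 11, 8 and 11 of these lists' tested genes, against 49.0% of the other tested genes. This order was taken over all 15 arrays and was not recomputed with arrays left out. For the mean deviation of Myh6, Tnni3 and Ttn it depended on the arrays. Over 15 arrays r was 0.53 with both the atrial and the ventricular deviation. Without 2w-WD array 2 and CHOW array 5 it was 0.91 with the atrial and 0.46 with the ventricular one. Of 10 genes of fast skeletal muscle, 1 (Mylpf) passed the filter, and their summed intensity stayed between 129.1 and 277.6 on all arrays. This list covers fast fibres only, and a share of skeletal muscle in the signal of Myl3, Myh7 and Sln was not tested.

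The genes most like Myl7 and Myl2, by Pearson r over the 15 arrays among 11915 tested genes, differed. For Myl7 they were Stimate (0.85), Zscan21 (0.80), Slfn5 (0.80), Cacna2d2 (0.79), Gpx3 (0.79), Tbxa2r (0.74), Cd180 (0.74) and Stard10 (0.74). Spearman's rho was 0.74 to 0.86 for Cacna2d2, Gpx3 and Stard10 and 0.25 to 0.48 for the other 5. Without 2w-WD array 2 and CHOW array 5, r with Myl7 was 0.46 for Cd180, the lowest of the 8, and 0.76 for Cacna2d2, the highest. Of the 8, 6 were lowest on CHOW array 5, and the remaining pair, Cacna2d2 and Stard10, on CHOW array 4. For Myl2 they were Tesc (0.89), E2f6 (0.87), Sirt5 (0.84), Poln (0.80), Marco (0.80), Mmp11 (0.80), Ptgds (0.80) and Bvht (0.80), with rho from 0.71 to 0.89. An r above 0.5 was reached by 2.94% of tested genes with Myl7 and by 2.90% with Myl2, so these lists are the upper ends of broad distributions.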

How the data were processed

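Foam cells of 15 samples (5 each of CHOW, 2w-WD and 14w-WD) were measured on 1-colour Affymetrix arrays. Per the labels, RNA was isolated with PicoPure, amplified with RiboAmp HS and biotin-labelled. The authors deposited one linear intensity per probe set (45037 probe sets, with 991 to 1238 values at exactly 1 per array); their summarisation and normalization are not given in the sources used here, and no further normalization was applied. Probe sets were named from the platform annotation: 34945 had 1 gene, 932 several and 9160 none. Intensities were put on a log2 scale with a pseudocount of 16, so fold changes of dim genes are understated. The brightest probe set represented each gene, and genes with a mean under the median of all probe sets (log2 5.66, intensity 34.63) were not tested. limma 3.58.1 in R 4.3.3 (lmFit, eBayes with trend) fitted 3 groups over 11925 genes, two-sided, with Benjamini-Hochberg adjustment and a threshold of 0.05. The procedure was tested on simulated data with noise independent between genes. It recovered 35 of 100 genes given a log2 change of 1 and 81 of 100 given a change of 2, with 5 false calls. The members and gene lists were chosen with earlier results of these data known. Named genes are the 10 members, genes of the fixed lists that passed a test or were bright, the 8 genes most correlated with Myl7 and with Myl2, the 10 at each end of the balance, and Adgre1, Cd68, Acta2, Pecam1 and Apoe; a few list genes (the potassium channel subunits, Tbx5, Fhl2 and others of the chamber lists) were named after their values were seen. Alternatives were other pseudocounts, quantile normalization, no filter, the mean of probe sets, array weights, fits of 2 groups, a replicate block and leaving out arrays.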

Additional observations from a re-analysis of the deposited data

Results flagged for a closer look

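Within each group of 5 arrays, the gap between an extreme array and its nearest neighbour was set against the group's range. Gaps above Dixon's critical value for 5 samples were marked, in 9 of 51 groups. That value marks about 1 group in 20 where groups are independent and not chosen for their spread. These groups share genes and arrays and were chosen with their unevenness known, so the count is a description. CHOW array 4 was the low one for Myh6 (9.98, next 13.81) and for Tnni3 (8.26, next 12.22). CHOW array 5 was the low one for the atrial minus ventricular balance (-8.57, next -1.97) and for Myl7 minus Myl2 (-8.80, next -2.08). On 14w-WD array 2 the ventricular genes were high: Myl3 was at 13.51 (next 9.52), Myh7 at 9.74 (next 6.67) and the ventricular deviation at 2.88 (next -0.97). Nppa was low on 14w-WD array 1 (11.02, next 13.28), and Myl4 on 2w-WD array 2 (11.11, next 13.16). The low pair of CHOW arrays for Myl7, Nppa, Myl4 and Sln was not marked, because each array of the pair has the other as its neighbour.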

How the results depend on the processing

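Of 750 recomputed differences of the 10 members, 16 changed sign and 0 passed the threshold (limma's adjusted p from 0.0967 to 1.00). With both low CHOW arrays left out, a choice made after seeing the data, Nppa turned to -0.0077 in 2w-WD against CHOW and to -0.41 in 14w-WD against CHOW, and Tnni3 to -0.037 in the latter. With the mean of probe sets Sln turned to 0.13 in 14w-WD against 2w-WD. Leaving out each array in turn gave ranges in 2w-WD against CHOW of -1.11 to 0.28 for Myl3 and -0.32 to 1.38 for Myh7; in 14w-WD against CHOW of -0.061 to 1.07 for Myh6 and -0.22 to 1.03 for Tnni3; and in 14w-WD against 2w-WD of -0.65 to 0.12 for Nppa, -0.70 to 0.0013 for Myl4, -0.54 to 0.058 for Sln and -2.23 to 0.13 for Myl2. The balance kept CHOW array 5 lowest and 2w-WD array 5 highest in 12 alternatives (other scalings, other probe sets, each gene left out), at -9.22 to -6.04 and 3.27 to 4.68. Its group differences ranged over single arrays left out from 1.28 to 4.11, 2.21 to 4.83 and, for 14w-WD against 2w-WD, -0.31 to 1.96. The alternatives with other probe sets say little. Myl7, Nppa, Myl2 and Myh7 have 1 probe set each, so their values were reused. The second probe sets of Myl4 and Sln were dim, with means of 5.01 and 5.38. They correlated with the brightest at -0.19 and 0.16. The median r between chambers was 0.27 without the 2 arrays farthest from the median balance and -0.36 without the 2 low CHOW arrays, and without these the median of atrial pairs was 0.79.

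The counts over all genes moved more. In 14w-WD against CHOW the 1 gene became 7 with a pseudocount of 64, 0 with quantile normalization, 17 with no filter, 0 with the mean of probe sets, 2234 with array weights, 122 with 2 groups fitted, 20 with a replicate block, and 0 to 201 with single arrays left out (201 without 2w-WD array 1). In 14w-WD against 2w-WD the 1338 became 3839 with array weights, 2122 with a replicate block, and 164 (without 14w-WD array 1) to 3536 (without 2w-WD array 1) with single arrays left out; it also moved by over 1.5 times without 2w-WD arrays 2 and 4 (260 each) and 3 (721) and 14w-WD arrays 2 (628), 3 (224) and 5 (568). The cause was not tested. Same-numbered arrays correlated at -0.17 to 0.48 in their deviations, and 6 of 15 correlated best with their own number, so the numbers were not taken to pair the arrays.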

Other observations

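Other genes followed the atrial minus ventricular balance. At its high end, by Pearson r over 15 arrays, were Nfkbie (0.78), Ccni (0.77), Ccl4 (0.75), Rec8 (0.74), Tm6sf1 (0.73), Cd180 (0.72), Srfbp1 (0.72), Lrrc66 (0.72), Lin54 (0.71) and Zdhhc7 (0.70). All 10 were lowest on CHOW array 5, the array of lowest balance. Nfkbie, an inhibitor of NF-kB, read 6.29 there against a mean of 9.47, and Cd180, a Toll-like receptor homologue, 8.90 against 10.24. Without 2w-WD array 2 and CHOW array 5, r was 0.28 for Srfbp1, 0.50 for Nfkbie and 0.73 for Ccni. At the low end were E2f6 (-0.86), Tesc (-0.85), Tacc2 (-0.79), Marco (-0.79), Cpeb1 (-0.79), Sirt5 (-0.77), Tnrc18 (-0.75), Stat5a (-0.73) and 2 with clone or predicted names. An r above 0.5 was reached by 1.59% of 11915 genes and one below -0.5 by 1.98%.

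Over all lists of heart muscle and other cell types, 7 of the 118 tested genes that are not among the 10 changed, all in 14w-WD against 2w-WD by limma; that is 5.93%, against 11.2% of all tested genes there. Aif1 (difference 1.82), Tyrobp (0.38), Col1a1 (1.05), Pdgfra (1.95), Mef2a (1.51) and Mylpf (0.90) were higher in 14w-WD, and Lep (-0.84) was lower, with adjusted p from 0.0106 to 0.0466. Cd68 (0.69, adjusted p = 0.156), Adgre1 (0.14) and Acta2 (-0.06) did not pass, and Pecam1 was under the filter.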
